A study of Rattus norvegicus with 16 samples.

Results

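Apold1 (apolipoprotein L domain containing 1) is 1 of the 32883 genes counted in bulk RNA of the nucleus basalis of Meynert, the main source of cholinergic input to the cortex in the basal forebrain. It is described here as the count row ENSRNOG00000007830 in all 16 libraries, on chromosome 4 at 168752133 to 168755023 of Rnor_6.0, plus strand, a model of 1 exon of 2891 bases that overlaps no other annotated gene. The gene was chosen by its measured counts, for the difference in level between stressed and control rats. That difference is therefore given as a description, without a test, and only the comparisons between the sexes and those of other genes are tested.

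The rats were Long Evans animals of the ChAT::Cre line, aged 70 days or more, in which Cre recombinase is expressed under the choline acetyltransferase gene, so controls and stressed rats share this transgene. The groups were female control, female stress, male control and male stress, with 4 libraries in each. The series text abbreviates the stress procedure as VS, and neither its course nor the time from the last stress to dissection is given in the sources used here. The labels do not say whether libraries stem from different animals. All p-values here rest on the spread between libraries, and that spread may be technical.

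Apold1 is also called Verge, for vascular early response gene. It belongs to the immediate early genes, whose transcripts rise soon after a stimulus without new protein synthesis and fall again after it ends. In the brain it is known from the endothelial cells of blood vessels, where it has been studied after ischaemia and other stimuli and in the control of endothelial permeability and junctions.

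The name comes with the choice of the gene, since the count files give identifiers only. In RefSeq, Apold1 also lies on the plus strand of chromosome 4, between Cdkn1b, an inhibitor of cyclin-dependent kinases, and Ddx47, an RNA helicase. RefSeq lists 15 transcripts for Apold1 where the count files used 1 exon, so the counts cover that exon alone. The 250 bases before the start that RefSeq gives for Apold1 are shown, because elements near the start take part in the transcription of early genes. The build is GRCr8 and not that of the counts, and the stretch is chr4:169552349-169552598, plus strand. The start it precedes was not matched to the start of the counted exon. Capitals mark the motif matches named after it.
Apold1 promoter: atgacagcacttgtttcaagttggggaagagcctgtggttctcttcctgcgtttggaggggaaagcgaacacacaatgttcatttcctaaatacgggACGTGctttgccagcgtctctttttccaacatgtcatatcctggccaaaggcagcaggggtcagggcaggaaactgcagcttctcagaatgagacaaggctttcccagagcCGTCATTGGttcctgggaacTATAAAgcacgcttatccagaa

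Each motif was searched on both strands of this window and of 33469 RefSeq windows of the same length. A TATA box (TATAAA) lay 22 to 17 bases before the start, and 12.9% of all windows held one. The core of the cAMP response element (TGACG) lay 42 to 38 bases before the start, on the minus strand, and 18.2% of windows held one. It shares a base with a CCAAT box on the same strand, 38 to 34 bases before the start, a motif held by 34% of windows. The letters ACGTG, a form of the core of the hypoxia response element, lay 153 to 149 bases before the start, and 16.6% of windows held them. Other forms of this core were not searched.
The window held no CArG box, the site of serum response factor (1.5% of windows), no full cAMP response element (TGACGTCA, 1.59%), no AP-1 site (TGANTCA, 6.34%), no EGR site (GCGNGGGCG, 4.29%), no GC box (GGGCGG, 30.5%) and no AGAACA motif of glucocorticoid receptor sites (17.5%). A match is a description of letters, and its absence concerns this window alone.

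Apold1 was low in every control library and high in every stressed library. Levels are TMM-normalised counts per M (mega) counts (CPM), where TMM is the scaling for library composition. In control females the 4 libraries held 1.60, 0.955, 0.734 and 1.33 CPM, and in stressed females 16.5, 11.3, 12.0 and 12.2 CPM. Female stress 1 stood above its group, and the lowest stressed female lay 7.10-fold above the highest control female. Control males held 1.95, 1.68, 1.15 and 1.76 CPM, and stressed males 14.2, 6.89, 18.1 and 13.9 CPM. Male stress 2 was the lowest stressed library of either sex and still lay 3.53-fold above the highest control male. Over all pairs of a stressed and a control library, the ratio ran from 7.10 to 22.5 in females and from 3.53 to 15.7 in males. No stressed library overlapped a control of its sex, a pattern that held with stress higher for 0.14% of the 14241 genes tested, in both sexes. Apold1 was chosen for this difference, so nothing is read from the share.

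**Figure D1:**
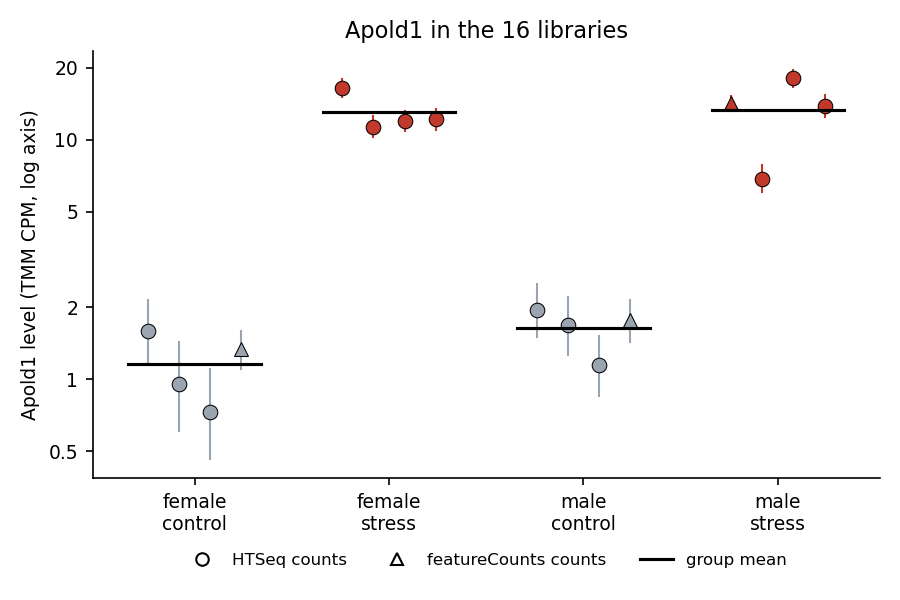
Apold1 level in each library (TMM CPM, log axis) by group; circles are libraries counted with HTSeq, triangles those counted with featureCounts, thin vertical lines the exact Poisson 95% interval of the count and thick lines the group mean. The 8 stressed libraries lie between 6.89 and 18.1 CPM and the 8 control libraries between 0.734 and 1.95 CPM.

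The female group mean was 1.16 ± 0.385 CPM in controls and 13.0 ± 2.36 CPM under stress, and the male one 1.64 ± 0.343 and 13.3 ± 4.65 CPM (SD, n = 4 each). The fitted log2 fold change was 3.47 (SE 0.27) in females and 3.02 (SE 0.25) in males, that is 11.0-fold and 8.11-fold. In bulk tissue, more cells of a type and more RNA per cell cannot be told apart. Markers of endothelial cells, of other cell types and of the dissected nucleus were not analysed here, because no table at hand pairs the identifiers with names. The part of vessel content in the result was not tested.

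The counts behind these levels were small in controls, at 23 to 118 reads, and 230 to 752 in stressed libraries. The upper ends came from featureCounts libraries, and the HTSeq libraries reached 65 and 636. Counting error alone, as the Poisson coefficient of variation, came to 9.21% to 20.9% in controls and 3.65% to 6.59% in stressed libraries. Its lower ends came from the same featureCounts libraries, and were 12.4% and 3.97% in the HTSeq libraries. The spread between libraries was 33.3% in control and 18.2% in stressed females, and 20.9% in control and 35.1% in stressed males. Female control 3, with 23 reads, had 0.734 CPM with an exact Poisson 95% interval of 0.465 to 1.10, which lies under that of female control 1, at 1.16 to 2.14. Male stress 2, with 230 reads, had an interval of 6.03 to 7.84 CPM, below those of the other stressed males and above those of every control. These intervals cover counting error only, and are too narrow for the featureCounts libraries, where each mate of a read pair was counted on its own.

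Female control 4, male control 4 and male stress 1 were the libraries counted with featureCounts, each mate on its own. They held 63.1 to 73.8 M counts, not in the same unit as the 22.7 to 38.2 M of the 13 counted with HTSeq. Apold1 stood at 1.33, 1.76 and 14.2 CPM in the featureCounts libraries, within the range of the HTSeq libraries of the same group each time. In the HTSeq libraries alone the means were 1.10 ± 0.449 CPM in control females and 1.60 ± 0.408 CPM in control males (SD, n = 3 each). Stressed males had 12.9 ± 5.65 CPM there (SD, n = 3), and all 4 stressed female libraries were HTSeq libraries. The log2 fold change without the featureCounts libraries was 3.57 in females and 3.03 in males.

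Mitochondrial genes took 64.2% to 82.5% of the counts, so Apold1 was also expressed per M nuclear counts. On that scale it went from 4.70 ± 1.57 to 53.6 ± 9.10 in females and from 6.70 ± 1.35 to 54.5 ± 19.0 in males (SD, n = 4 each). The groups stayed apart, at 3.07 to 8.01 in the 8 controls and 28.3 to 73.8 in the 8 stressed libraries. The mitochondrial share was 73.6% ± 6.83 in control and 74.4% ± 3.49 in stressed females, and 74.9% ± 3.13 in control and 78.2% ± 2.97 in stressed males (SD, n = 4 each). The Apold1 difference with mitochondrial genes removed was 3.46 in females and 3.02 in males, as log2 fold changes.

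Per kilobase of exon, Apold1 moved from among the weakly expressed genes to above the middle of the tested genes. Its level per length was 0.400 CPM per kb in control females, where 17.3% of the 14241 genes tested were lower, and 0.567 in control males, where 22.6% were lower. In stressed females it was 4.50 CPM per kb, above 70.2% of genes, and in stressed males 4.59, above 70.8%. All 16 libraries passed the level of the filter on low counts for Apold1 (0.292 CPM), the 8 controls included, so it was not tested through the stressed groups alone.

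The order of the group means was male stress, female stress, male control, female control, and neighbours in that order that share a treatment overlapped. The 4 stressed females all fell inside the range of the stressed males. Females minus males, the log2 difference in stressed rats was -0.029 (SE 0.22, 95% interval -0.49 to 0.43), and missed the threshold (adjusted p = 0.994 by edgeR's quasi-likelihood test). In controls it was -0.47 (SE 0.28, 95% interval -1.06 to 0.11; edgeR adjusted p = 0.868), a ratio of 0.720. For comparison, 0.0913% of the genes tested were called in stressed rats and 0.112% in controls, at an adjusted p under 0.05.
The stress effect in females exceeded that in males by 0.44 on the log2 scale (SE 0.36, 95% interval -0.30 to 1.19), which did not pass (edgeR adjusted p = 1.0). This difference was called for 0 genes by edgeR (0% of those tested), with 571 at an unadjusted p under 0.05, for 1 gene by DESeq2 and for 0 by limma voom. As a ratio of the female to the male effect, the 95% interval ran from 0.814 to 2.28.

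Among the 14241 genes tested, Apold1 had the highest log2 fold change with stress averaged over the sexes, at 3.24 (SE 0.18). The next, at 2.37 (SE 0.63), was a gene of 4 exons on chromosome 14 (32855462 to 32897232) that held 0.0389 to 0.404 CPM in the group means and was not called by edgeR (adjusted p = 0.130). The third was ENSRNOG00000003977 on chromosome 10 (16970626 to 16973418), at 1.97 (SE 0.11). In males Apold1 was again first, and in females 2 genes had higher values, each with at most 23 reads in any female library (edgeR adjusted p = 0.154 and 0.314). Genes called higher on average made up 0.232% of those tested, and those at least 2-fold higher 0.541%, with a median log2 fold change of 0.007 over all genes.

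**Figure D2:**
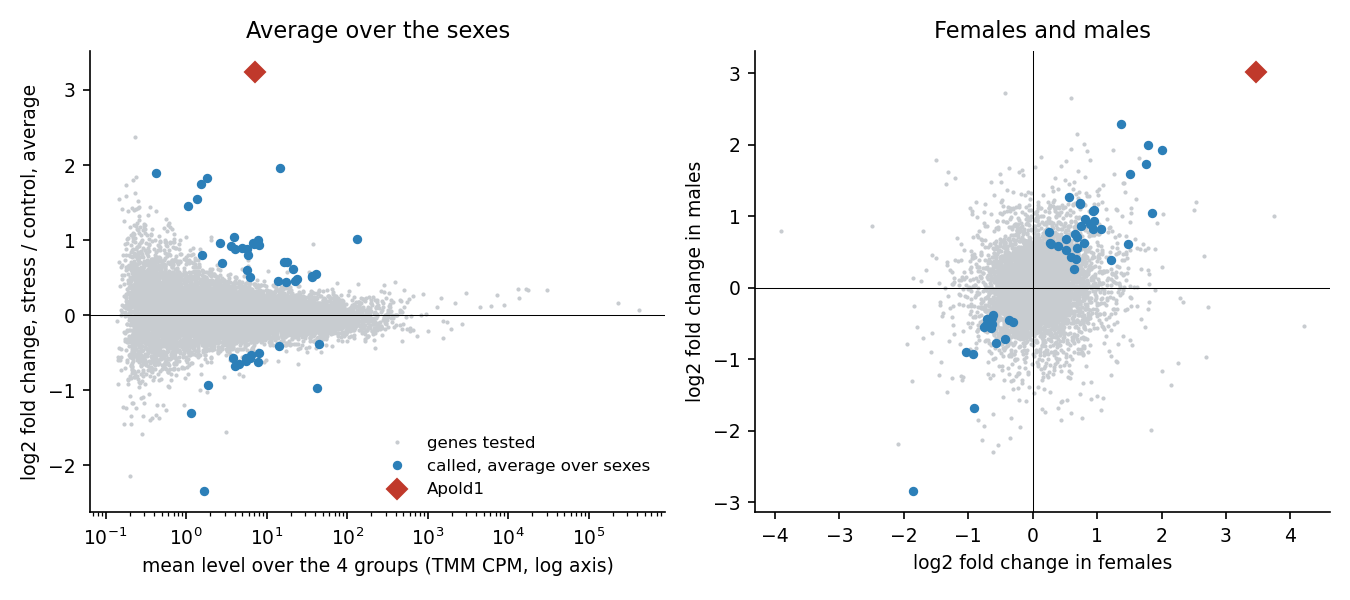
Left, log2 fold change of stress against control averaged over the sexes (vertical axis) by mean level (TMM CPM, log axis) for the 14241 genes tested; right, log2 fold change in females (horizontal) and in males (vertical). Grey points are genes tested, blue points the 48 called on average and the red diamond Apold1, which stands at 3.24 on the left and at 3.47 and 3.02 on the right.

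The spread of Apold1 inside the groups rested in part on 1 library. Its fitted biological coefficient of variation was 22.6%, against a median of 15.2% among the 500 genes nearest to it in mean level, and 96.0% of those had a lower value. That mean is taken over control and stressed libraries together, a level that Apold1 holds in no group. Without male stress 2, left out after its value was seen, the coefficient was 17.2% against a median of 15.4%, and 78.4% of the nearest genes were lower. Male stress 2 and male stress 3, at 6.89 and 18.1 CPM, were the widest pair. Without male stress 2 the male log2 fold change was 3.23, and without male stress 3 it was 2.83.

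The genes most like Apold1 across the 16 libraries were sought by Pearson correlation of log2(CPM + 0.5). The stressed and control libraries form separate clusters for Apold1, so a high correlation here mainly repeats a stress difference, and no p is given. The highest were ENSRNOG00000003977 (r = 0.92) and ENSRNOG00000019018, a gene of 14 exons on chromosome 16 (74098260 to 74122889; r = 0.92). The other 8 of the first 10 had r from 0.85 to 0.90 and lay on chromosomes 1, 2, 4, 6, 13, 17 and 20. The one on chromosome 4 (151414684 to 151428894) lies more than 500 kb from Apold1. All 10 were among the 32 other genes called higher with stress by edgeR. Genes called higher, Apold1 included, made up 0.232% of those tested. The search ran on likeness to a gene that splits by stress, so nothing is read from this overlap.

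ENSRNOG00000003977 had 6.57 ± 1.78 CPM in control and 26.5 ± 1.68 CPM in stressed females, and rose in males from 5.30 ± 0.559 to 20.3 ± 2.60 CPM (SD, n = 4 each; average log2 fold change 1.97, edgeR adjusted p = 7.85e-12). ENSRNOG00000019018 had 12.1 ± 1.57 CPM in control and 19.2 ± 0.812 CPM in stressed females, and in males 12.7 ± 0.988 and 21.3 ± 4.35 CPM (average log2 fold change 0.70, edgeR adjusted p = 9.08e-05). In both genes every stressed library lay above every control of its sex, as for 0.14% of the genes tested. In females alone the second did not pass (edgeR adjusted p = 0.0548). Both genes were picked by likeness to a gene that splits by stress. Their p-values and the lack of overlap therefore describe the pick and are no separate evidence.
Per length, the level of Apold1 relative to ENSRNOG00000003977 was 0.121 ± 0.0424 in control and 0.330 ± 0.0671 in stressed females, without overlap (SD, n = 4 each). In males it was 0.210 ± 0.0580 in controls and 0.455 ± 0.196 in stressed rats, and the groups overlapped, since male stress 2 had 0.199. Apold1 thus remained the less abundant of the pair per length in all 16 libraries, with 0.668 in male stress 3 as its highest ratio. It was chosen for its stress difference and had the larger fold change of the pair, so nothing is read from the rise of this ratio with stress.

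Inside the groups, Apold1 and the other genes called higher did not follow one order of libraries. On deviations from the 4 group means, the 32 other genes had correlations with Apold1 from -0.43 to 0.53, with a median of 0.004, and 16 of the 32 were positive. The median over all genes tested was -0.001, and 5% of genes lay above 0.41. The deviation correlation was -0.11 for ENSRNOG00000003977 and 0.51 for ENSRNOG00000019018. Apold1 deviated most in male stress 2 (-0.82 on the log2 scale) and male stress 3 (0.51). These 2 libraries can weigh heavily in the deviation correlations given here, by an amount that also depends on the deviation of the other gene. Correlations without male stress 2 and male stress 3 were not computed.
Male stress 2 held the lowest Apold1 of its group, and was the lowest for 12 of the 32 other genes and the highest for 4. Male stress 3 held the highest Apold1, and was the highest for 8 and the lowest for 9. Female stress 1, the highest for Apold1, was the highest for 3 of the 32. The largest such counts lay in libraries where Apold1 was neither highest nor lowest. Male stress 1 was the highest for 15, male control 2 for 14, and female stress 4 was the lowest for 16.
The genes with the highest deviation correlation, up to r = 0.83 for one on chromosome 11 (31640407 to 31664061), were not called for stress. That one had an average log2 fold change of 0.067 (edgeR adjusted p = 0.844), and the first 5 ran from 0.80 to 0.83 with none called. These are the highest of 14241 values over 16 libraries and are given as a description.

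**Figure D3:**
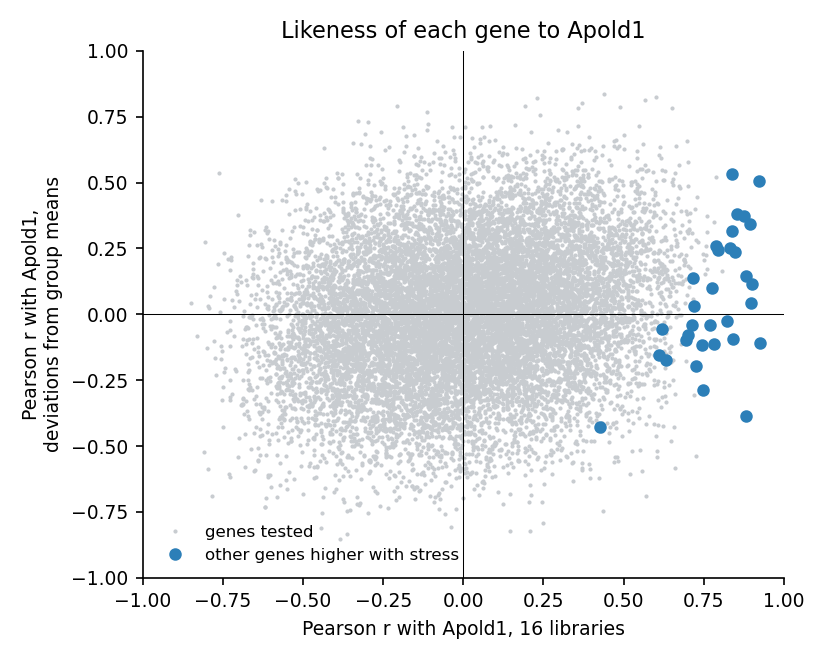
Pearson correlation of each tested gene with Apold1 over the 16 libraries (horizontal axis) and over deviations from the 4 group means (vertical axis). Grey points are genes tested and blue points the 32 other genes called higher with stress, which lie between 0.43 and 0.92 on the horizontal axis and on both sides of 0, from -0.43 to 0.53, on the vertical axis.

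Apold1 had the highest average fold change of all genes tested, so no gene around it could match its size. Of the 15 other genes within 500 kb, 10 had enough reads to be tested. By edgeR, DESeq2 or limma voom 0 of them were called for stress on average, against 0.337% of all genes by edgeR. A set of 10 genes is too small to set 0 called apart from that share, so nothing is read from it. None of the 10 had an unadjusted p under 0.05 by edgeR. Their log2 fold changes ran from -0.25 to 0.22 with a median of 0.11, and the smallest adjusted p by edgeR was 0.672.
The nearest gene after Apold1, 20088 bases away (168775111 to 168787730, 12 exons), had 5.84 ± 0.995 CPM in control and 6.14 ± 1.09 CPM in stressed females. In males it had 5.86 ± 0.876 and 6.39 ± 0.623 CPM (SD, n = 4 each; average log2 fold change 0.10, SE 0.11, edgeR adjusted p = 0.821).
The nearest gene before it, 58169 bases away (168689163 to 168693964, 4 exons), had 8.93 ± 3.10 and 9.24 ± 0.920 CPM in control and stressed females. In males it had 7.83 ± 0.789 and 9.05 ± 1.39 CPM (SD, n = 4 each; average log2 fold change 0.12, SE 0.12, edgeR adjusted p = 0.806). The 5 genes not tested had at most 20 reads in any library.

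**Figure D4:**
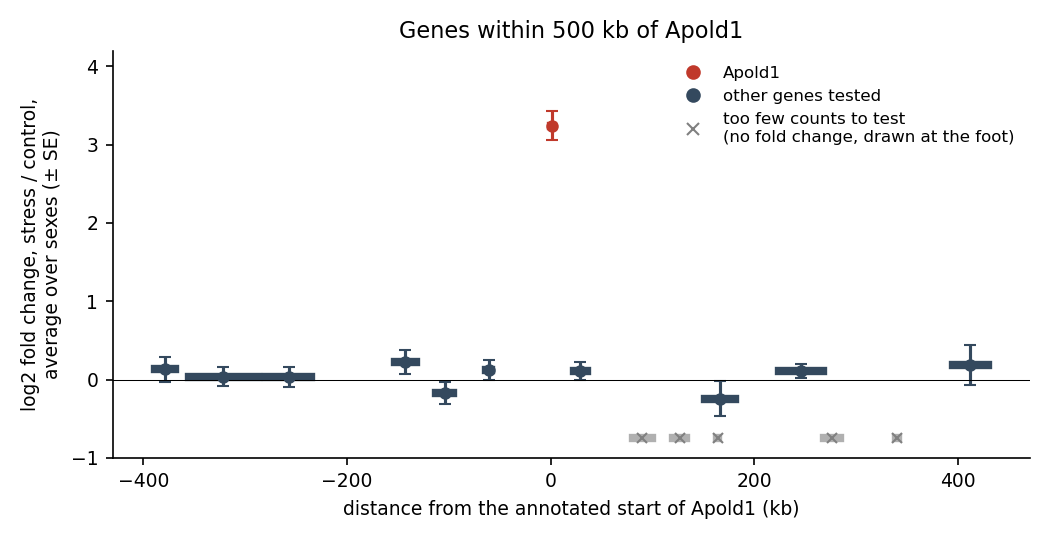
Average log2 fold change of stress against control (vertical axis, error bars SE) by distance from the annotated start of Apold1 (kb); thick bars are gene spans and crosses the 5 genes with too few counts to test. Apold1 stands at 3.24 and the 10 other tested genes between -0.25 and 0.22.

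Genes annotated with 1 exon, as Apold1 is, were compared as a class, since reads from such genes cannot be told from unspliced or genomic sequence by a splice junction. Of the 681 other genes with 1 exon of at least 200 bases that were tested, 2 were called higher with stress on average and 0 lower by edgeR, or 0.294%, near the 0.337% of all genes. Their median log2 fold change was 0.006 and their highest 1.22. The 2 called lay on chromosome 17, at 43639749 to 43640387 (log2 fold change 0.88, edgeR adjusted p = 0.00426) and at 43734461 to 43735120 (0.89, edgeR adjusted p = 0.0159). Only 1 was called without female stress 2 and without male control 4. DESeq2 called 5, of which 3 were lower, where it called 103 of all 14241 genes tested. With edgeR without TMM scaling 0 were called.

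Across the processing alternatives the log2 fold change of Apold1 ran from 3.14 to 3.35 on average, from 3.31 to 3.61 in females and from 2.83 to 3.23 in males. Each value stayed within 0.37 of the one reported, the SD between libraries of a group on the log2 scale. The lowest female value came without female control 3, and the highest without female control 1.

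**Figure D5:**
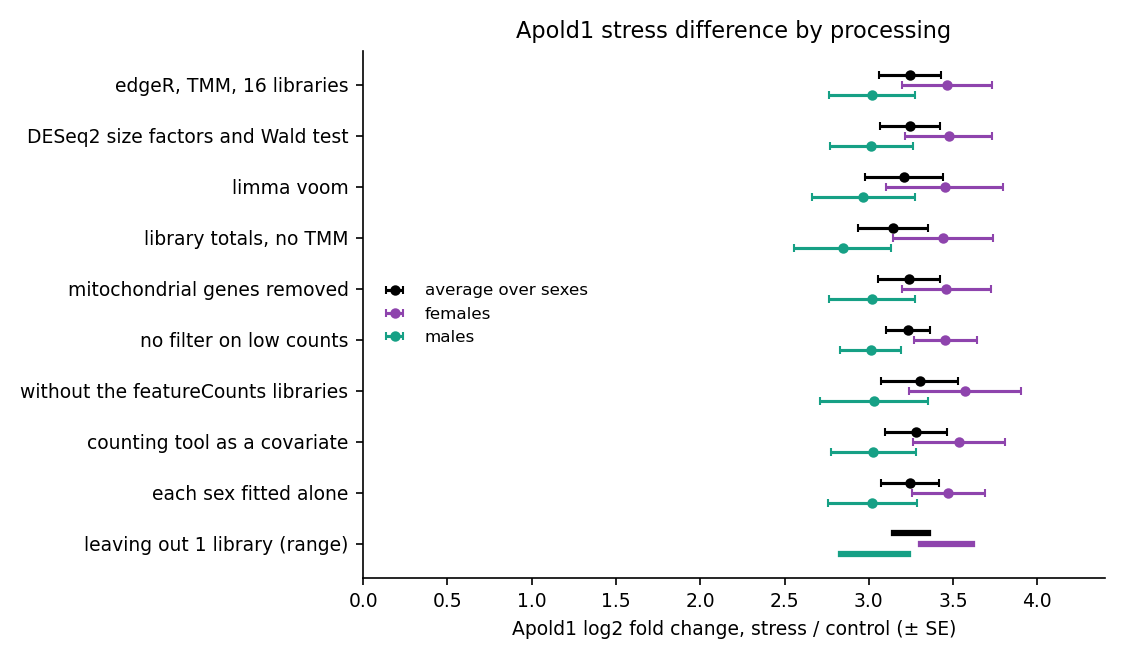
Log2 fold change of Apold1 with stress (horizontal axis, error bars SE) under each processing alternative, averaged over the sexes (black), in females (purple) and in males (green); the bars at the foot give the range when 1 library is left out. All values lie between 2.83 and 3.61.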

How the data were processed

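Total RNA of the nucleus basalis was turned into libraries by a NuGen Ovation kit (RNA-Seq System v2) and sequenced as 75 bp paired ends, per the labels' protocols. The authors deposited raw counts per Ensembl gene. STAR 2.5.2a and HTSeq are named in the submitters' processing notes, with the build Rnor_6.0, and 13 files have HTSeq's layout. The other 3 were counted with featureCounts 1.6.1 and Ensembl release 92, each mate on its own, per the file headers. The closing lines of the HTSeq files, for reads given to no gene, made up 44.8% to 64.7% of their entries and were left out.

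Counts of all 16 libraries were fitted with edgeR 4.0.16 in R 4.3.3 (TMM, filterByExpr, 4 group means, robust quasi-likelihood). Standard errors (SE) belong to log2 fold changes, and adjusted p-values are Benjamini-Hochberg values over the 14241 genes tested, called under 0.05. DESeq2 1.42.0, limma 3.58.1 (voom) and other scalings, filters and sets of libraries were alternatives.

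Apold1, the lists and the tests were chosen with earlier results of these data known. Named genes were those most like Apold1 (the first 10 by correlation over libraries and the first 5 by correlation of deviations), those within 500 kb, those next to it in fold change, and members of gene lists. The lists of genes and cell markers could not be applied: of the 47357 RefSeq genes at hand, 0 carry an Ensembl identifier, so at most 2 identifiers are printed beside Apold1 and other genes are given by position. Replicates are numbered in accession order and pair no samples. In stressed females the title numbers differ from those given with the counts. Promoter sequence is from RefSeq, build GRCr8.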

Additional observations from a re-analysis of the deposited data

Results flagged for a closer look

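Libraries standing apart from the other 3 of their group were sought in 29 groups of 4 values, covering Apold1 on 3 scales, both companion genes and the library measures, and 3 were found. Chance gives about 1 in 20 of independent groups, and these are not independent.

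Female stress 1 had 16.5 CPM of Apold1 against 11.3 to 12.2 CPM in the other stressed females. It did not stand apart on the scale of nuclear counts, at 66.8 against 46.7 to 52.1. Without it the female log2 fold change was 3.32 (SE 0.27).

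The total of male control 4 was 67.0 M, and the remaining male controls had 30.0 to 34.9 M. Male control 4 is a featureCounts library, with each mate counted on its own, so its total is not in their unit. Its Apold1 level, 1.76 CPM, lay inside the group.

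In female stress 4, 45.0% of the reads assigned to a gene or to none fell in no gene, against 21.4% to 24.7% in the other stressed females. Its Apold1 level, 12.2 CPM, lay inside the group, and without it the female log2 fold change was 3.49. The part of this share in the Apold1 values was not tested further.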

How the results depend on the processing

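The Apold1 stress difference kept its direction and moved by less than the SD between libraries in all 24 alternatives run for each of the average, female and male values. Leaving out 1 library gave 3.15 to 3.35 on average, 3.31 to 3.61 in females and 2.83 to 3.23 in males, the last 2 values without male stress 3 and male stress 2. The sex difference in controls (-0.62 to -0.32) and the difference of the stress effect (0.23 to 0.63) kept their direction and did not pass in any of 23 alternatives. The sex difference in stressed rats, close to 0, changed sign with limma voom (0.031), without TMM (0.21), without the featureCounts libraries (0.0073) and with the counting tool as a covariate (0.020), and ran from -0.24 to 0.16 when 1 library was left out. It passed in none of them, with a smallest adjusted p of 0.738. The count of 1-exon genes called was 5 of 681 with DESeq2, 0 of 681 without TMM and 15 of 2592 without a filter on low counts. It was 1 to 3, of 704 to 739 genes, when 1 library was left out. These counts rest on sets of different size, and the cause of their differences was not tested. Of all 14241 genes tested, 48 were called for stress on average with edgeR and 103 with DESeq2. In females the counts were 9 and 27, and in males 17 and 31, with 11 by limma voom. With each sex fitted alone no average test over genes was available, so counts of called genes were not run there, and the gene lists were not run at all. No paired analysis was possible because each number in the sample titles belongs to a single library, so that no number is shared between groups, and the replicate numbers used here only follow accession order. Depth limits the control levels most, where 23 reads stand behind the lowest values.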
